A study of Rattus norvegicus with 27 samples.

Results

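The genes of the AMPA and NMDA subtypes of ionotropic glutamate receptor, with Shisa6, were examined in punches of tissue from the interpositus nucleus (IP), a deep nucleus of the cerebellum. The set held Gria1, Gria2, Gria3 and Gria4, which encode the AMPA receptor subunits GluA1 to GluA4, Grin1, Grin2a, Grin2b, Grin2c and Grin2d, which encode the NMDA receptor subunits, and Shisa6, which encodes an auxiliary protein of AMPA receptors. Members were taken by gene symbol, and all 10 were found among the 17321 genes of the count table. All 10 also had enough counts to be among the 12107 genes tested. The animals were Long-Evans rats of postnatal day 70, either reared normally (no treatment, NT) or reared with limited bedding (LB), a shortage of nesting material for dam and litter from postnatal day 2 to 9. NT comprised 5 females and 7 males and LB comprised 7 females and 8 males, and the question was whether sex or limited bedding went with a difference in adult receptor expression. Pups of all groups were fostered across litters on postnatal day 2 and weaned into cages of 1 sex and treatment, and the authors removed samples with low RNA integrity. Litters and cages are not named in the labels, so that p values measure the spread between these animals. A punch holds neurons, glia and vessels together, so fewer cells of a type and less RNA per cell cannot be told apart in these data.

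AMPA receptors carry most fast excitatory transmission in the brain, and the mixture of GluA1 to GluA4 in a receptor sets its conductance and kinetics. GluA2, in its edited form, makes the channel nearly impermeable to calcium. NMDA receptors need the GluN1 subunit together with GluN2 subunits, and the GluN2 type sets the sensitivity to magnesium and the time course of the current. In the adult cerebellum GluN2C is known as a subunit of granule cells, GluN2B as a subunit of early development there and of the adult forebrain, and GluN2D as a subunit of brainstem and deep nuclei. GluA1 and GluA4 are known from Bergmann glia, and Shisa6 keeps AMPA receptors at the postsynaptic density.

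The members lie on 7 chromosomes in the rn6 genome. Shisa6 lies on chromosome 10 from 52749846 to 53037816 on the minus strand, with 5 merged exons of 1566 bases in all. Grin2b lies on chromosome 4 from 169559949 to 169998448 on the minus strand, with 13 exons of 5259 bases. Grin2a and Gria1 share chromosome 10 with Shisa6 and Grin2c, and Gria3 is on the X chromosome. Gria2 shares 29 exonic bases with Mir2985 and Grin1 shares 8 with Lrrc26, and the other 8 members share none with another gene of the table. The counts covered whole genes, so splice forms such as flip and flop, and the edited and unedited forms of Gria2, were summed.

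Promoter sequence from RefSeq (build GRCr8, which is not the build of the counts) was at hand for 5 of the 10 members, namely Gria4, Grin1, Grin2c, Grin2d and Shisa6. It was not found for Gria1, Gria2, Gria3, Grin2a and Grin2b. Each window runs from 250 bases before to 50 bases after the annotated start. The windows of Shisa6, the member with the largest fall in males among those with a promoter, and of Grin2c, the most abundant GluN2 gene, are shown 5′ to 3′ on the minus strand, with matches to the searched motifs in capitals.
Shisa6, chr10:51691107-51691406: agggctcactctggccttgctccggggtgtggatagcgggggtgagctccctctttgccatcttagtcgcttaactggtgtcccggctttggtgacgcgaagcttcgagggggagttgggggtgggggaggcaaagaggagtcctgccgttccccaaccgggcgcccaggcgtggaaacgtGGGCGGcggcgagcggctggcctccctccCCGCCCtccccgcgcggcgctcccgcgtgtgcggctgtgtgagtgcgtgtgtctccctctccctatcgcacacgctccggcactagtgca
Grin2c, chr10:101005089-101005388: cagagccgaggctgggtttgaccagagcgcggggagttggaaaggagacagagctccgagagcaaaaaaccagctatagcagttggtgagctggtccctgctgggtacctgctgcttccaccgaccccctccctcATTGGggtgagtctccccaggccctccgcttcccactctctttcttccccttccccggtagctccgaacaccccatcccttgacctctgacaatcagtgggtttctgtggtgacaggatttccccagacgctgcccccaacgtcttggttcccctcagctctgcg
Both strands were searched for GGGCGG, the core of the GC box, and for CCAAT, the core of the box of that name. A search was also made for TATAAA as a form of the TATA box, and a further one for TGACGTCA, the cyclic AMP response element. The Shisa6 window held GGGCGG at 2 places, once on each strand, and none of the others, and the Grin2c window held CCAAT once, on the opposite strand. Of 33469 rat promoter windows of this length, 33.1% held the GC box, 37.5% the CCAAT box, 14.2% the TATA form and 1.83% the cyclic AMP response element. In the other windows at hand, Grin1 held the GC box and Gria4 and Grin2d the CCAAT box, 1 match each. These matches are a description of the letters in the windows.

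Total counts per animal ranged from 11836684 to 24169170, and the member with the fewest counts in any animal was Shisa6, with 22. Levels are given as CPM, the count scaled to a common library size. Groups were compared by the edgeR quasi-likelihood test in 1 model of all 27 animals, with Benjamini-Hochberg adjustment over 12107 genes, and a gene passed at an adjusted p under 0.05. The labelled sex held in every animal by the Y-linked gene Eif2s3y, with at least 516 counts in males and at most 3 in females. Cerebellar tissue was present in every punch: the 6 granule cell markers (such as Gabra6 and Cbln3) summed to between 1698 and 6014 CPM, and the 6 markers of deep nucleus projection neurons (such as Slc17a6 and Nefh) to between 455.0 and 3930 CPM.

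Several libraries stood apart before any comparison was made. NT male 6112 had the highest deep nucleus markers, at 3930 CPM, and 161.1 CPM of cholinergic motor neuron markers, against group medians of 2.17 CPM or less. Mnx1, one of those motor neuron markers, had no count in any NT male. Neurod6, a transcription factor gene known from excitatory neurons of the forebrain, ran from 33.7 to 127.7 CPM over the 27 animals (median 68.1). It was 66.0 ± 9.61 CPM (SD, n = 5) in NT females, 77.6 ± 33.2 (n = 7) in NT males, 69.4 ± 9.82 (n = 7) in LB females and 73.9 ± 23.7 (n = 8) in LB males. LB female 5022 and NT male 3113 had the lowest Gria2 and Gria4 of all animals. The length trend, which is the correlation over genes of exon length with an animal's deviation in log2 CPM and so tells whether long transcripts were high in that library, was 0.271 ± 0.0722 (SD, n = 5) in NT females and -0.179 ± 0.137 (n = 8) in LB males. It was 0.00116 ± 0.138 (n = 7) in NT males and 0.0474 ± 0.246 (n = 7) in LB females.

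Per kilobase of exon, Grin1 was the most abundant member over all 27 animals, at 120.3 ± 21.6 CPM per kb (SD). Gria4 followed at 95.6 ± 32.1 and Grin2c at 82.2 ± 27.5 CPM per kb. Gria2 stood at 62.3 ± 22.2, Gria1 at 43.9 ± 16.2 and Gria3 at 17.9 ± 8.09 CPM per kb. The lowest members were Grin2b at 4.02 ± 4.70, Shisa6 at 3.70 ± 3.45, Grin2a at 2.96 ± 1.79 and Grin2d at 1.77 ± 0.969 CPM per kb. Not every step in this order held within animals. Gria1 was above Gria3 in 27 of 27 animals and Gria3 above Grin2b in 26. Grin1 was above Gria4 in 21, Gria4 above Grin2c in 19, Grin2c above Gria2 in 21 and Gria2 above Gria1 in 18. Grin2b was above Shisa6 in only 12 animals and Shisa6 above Grin2a in 15, so that these neighbours did not differ beyond their spread. Lengths are those of the merged annotated exons, and a gene whose annotation lacks part of a transcript is placed too high or too low.

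**Figure D1:**
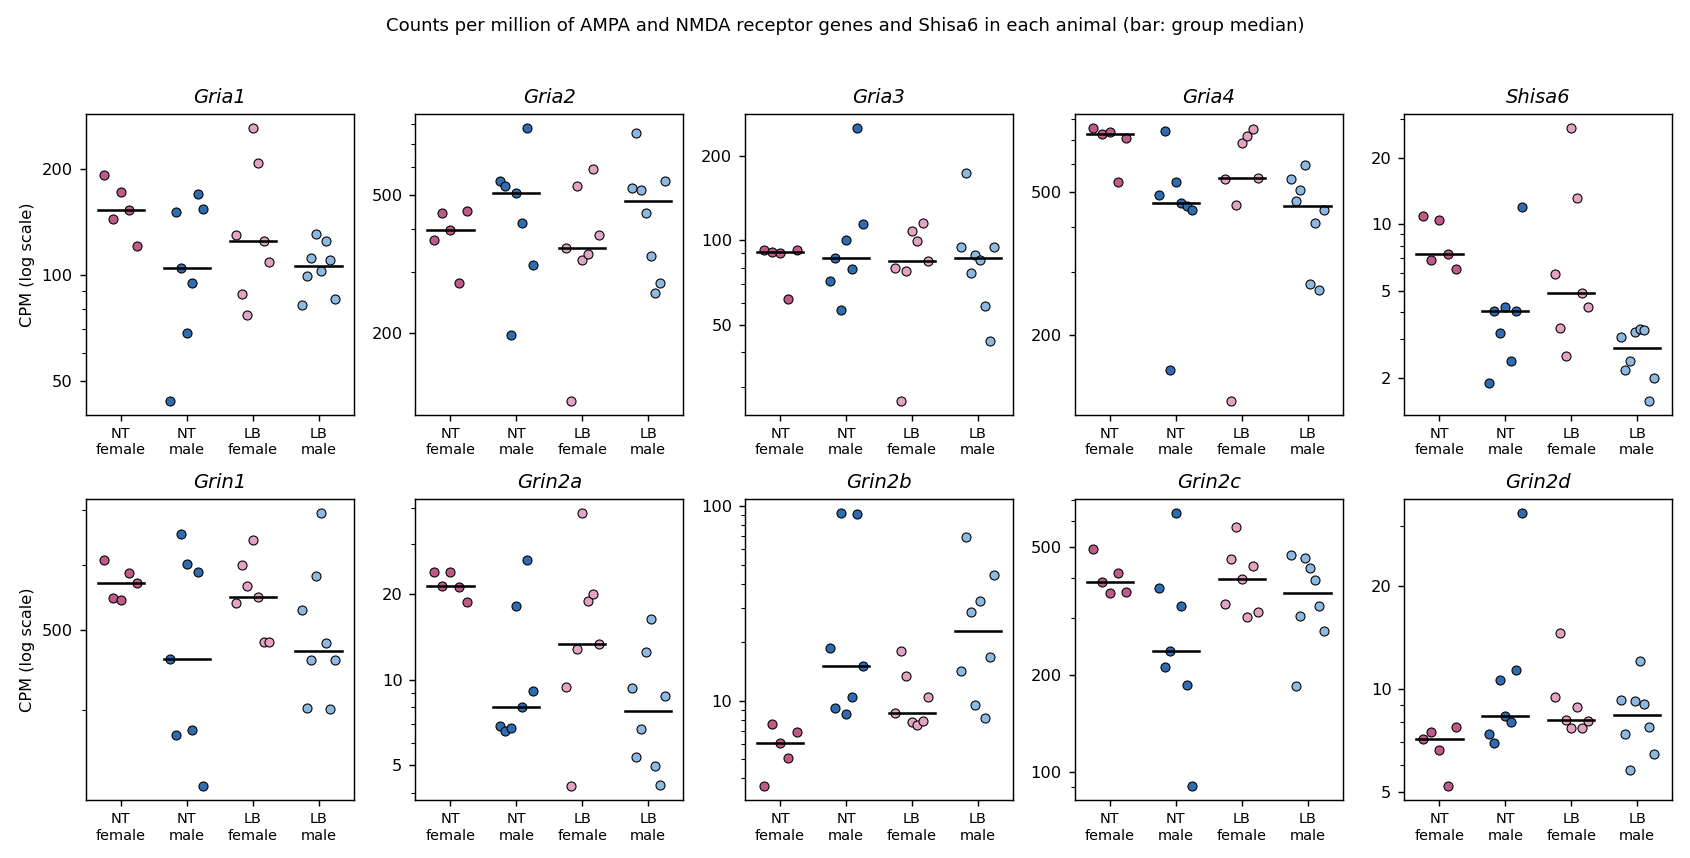
Each point is 1 animal, with CPM on a log axis and a panel for each member, in the 4 groups. Bars are group medians. Grin2b lay between 3.65 and 7.56 CPM in NT females and between 8.53 and 92.3 CPM in NT males, without overlap.

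The AMPA receptor genes were led by Gria4. Of the summed level per kb of the GluA genes, Gria4 made up 42.6% ± 7.02 (SD, n = 27), Gria2 28.5% ± 7.03, Gria1 20.8% ± 7.41 and Gria3 8.11% ± 2.32. NT females were the most alike, with a Gria4 share between 48.0% and 50.7%. In NT males the Gria4 share reached from 27.4% in animal 6111 to 48.0% in animal 3112, and 6 of the 7 males lay below every NT female. The Gria2 share was 22.2% ± 2.71 in NT females and 31.5% ± 6.21 in NT males, with 6 of 7 males above every NT female.

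The shares of the 4 GluA genes, the shares of the 4 GluN2 genes and the ratio of Grin1 to the summed GluN2 genes were compared between groups by exact two-sided permutation tests. Over the 36 tests (9 quantities in 4 comparisons), 9 had an unadjusted p under 0.05 and 0 passed after Benjamini-Hochberg adjustment. The smallest adjusted p, 0.0909, was shared by 6 of them. The comparisons with NT females had only 792 regroupings, so that no single share there could pass by itself among 36 tests. Among these 6, the share of Gria4 was lower by 10.1 percentage points in NT males than in NT females (exact permutation p = 0.00505) and that of Gria2 was higher by 9.28 (exact permutation p = 0.0126). The share of Gria4 was also lower in LB than in NT females, at 43.7% ± 6.33 against 49.8% ± 1.06 (exact permutation p = 0.00505). That of Gria3 was higher in LB females, at 7.33% ± 0.393 against 6.51% ± 0.422 (exact permutation p = 0.0101). The remaining pair were shares of Grin2b among the GluN2 genes. That share was 1.16% ± 0.387 in NT females, 9.83% ± 10.4 in NT males (exact permutation p = 0.0101) and 2.03% ± 0.596 in LB females (exact permutation p = 0.0152 against NT females). Computed without scaling for exon length, 2 of the 36 passed, namely Gria4 between the sexes in NT and Gria3 between LB and NT females. A share falls when another gene of the family rises, so these values do not say which gene moved.

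**Figure D2:**
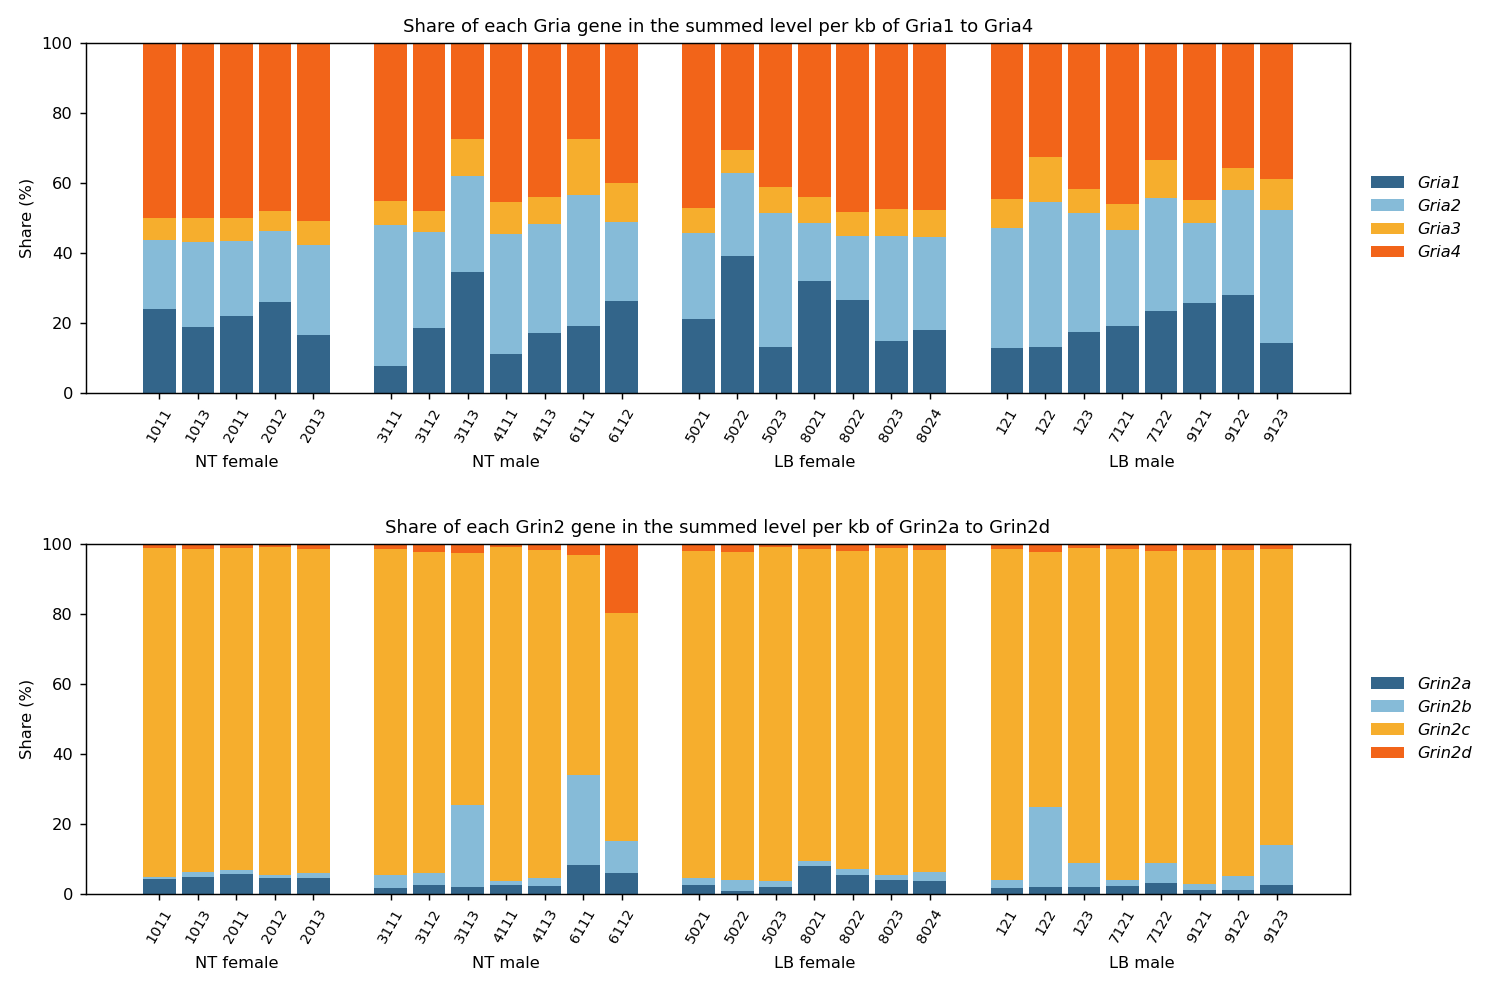
Each bar is 1 animal, named by its sample title, and shows the share in percent of each GluA gene (upper panel) and each GluN2 gene (lower panel) in the summed level per kb. Gria4 made up between 27.4% and 50.7% and Grin2c between 62.9% and 95.4%. The NT females look alike, and NT males 3113, 6111 and 6112 and LB male 122 carry the largest Grin2b or Grin2d shares.

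In CPM no AMPA receptor gene differed between the sexes within NT or within LB past the threshold. Gria4 was 756.7, 728.6, 738.5, 532.3 and 706.1 CPM in the 5 NT females. In NT males it ran from 159.1 over a median of 466.1 to 738.5 CPM. It ran from 130.8 over 546.7 to 748.8 CPM in LB females and from 266.3 over 459.0 to 596.4 CPM in LB males. The groups overlapped, though 5 of 7 NT males lay below every NT female. The log2 fold change of Gria4 between males and females was -0.56 ± 0.30 (SE) in NT (adjusted p = 0.195) and -0.32 ± 0.27 in LB (adjusted p = 0.556).

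Gria1 had log2 fold changes of -0.48 ± 0.28 in NT (adjusted p = 0.230) and -0.43 ± 0.25 in LB (adjusted p = 0.374). Over all animals its value was -0.45 ± 0.19 (adjusted p = 0.0646). The lowest Gria1, 43.9 CPM, was in NT male 3111 and the highest, 261.1 CPM, in LB female 8021. Gria2, whose product limits calcium entry, had 388.0 ± 68.9 CPM (SD) in the 5 NT females and 470.1 ± 186.6 in the 7 NT males. It was 378.9 ± 151.8 (n = 7) in LB females and 457.3 ± 164.7 (n = 8) in LB males. Both Gria2 and Gria3 had positive log2 fold changes between males and females in NT, of 0.28 ± 0.31 and 0.35 ± 0.33, with adjusted p of 0.551 and 0.486. In LB the values were 0.27 ± 0.27 for Gria2 and 0.08 ± 0.29 for Gria3 (adjusted p = 0.621 and 0.905). The Gria3 value turned to -0.02 when NT male 6111, at 252.8 CPM against at most 114.9 in the other NT males, was left out.

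Shisa6 had the largest difference between the sexes among the members lower in males over all animals and in LB, whereas in NT that of Grin2a was as large. It was 10.9, 6.85, 10.5, 7.33 and 6.25 CPM in the 5 NT females. NT males ran from 1.91 over a median of 4.06 to 11.99 CPM, LB females from 2.53 over 4.89 to 27.5 CPM and LB males from 1.58 over 2.73 to 3.33 CPM. In NT, 6 of the 7 males lay below every female, and the exception was animal 6112. In LB, 6 of the 7 females lay above every male, animal 5023 lay within the range of the males, and animal 8021 was the highest of all 27.

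Over all animals Shisa6 was 2.47-fold lower in males, with a log2 fold change of -1.30 ± 0.31 (SE) and an adjusted p of 0.00424. The background was wide: 29.3% of all genes tested passed in that comparison. Within LB the log2 fold change was -1.73 ± 0.42 (adjusted p = 0.0686) and within NT it was -0.87 ± 0.46 (adjusted p = 0.186). Without NT male 6112 the NT value was -1.34 (adjusted p = 0.0513), and without LB female 8021 the LB value was -1.11 (adjusted p = 0.246). Within LB it passed when LB female 5022 (-1.87, adjusted p = 0.0199), LB female 5023 (-1.89, adjusted p = 0.0435) or NT male 6112 (-1.73, adjusted p = 0.0354) was left out. All genes that passed in LB then numbered 1059, 30 and 47, against 30 with every animal. NT male 6112 is outside the LB groups, and leaving it out did not move the estimate. The interaction of sex and treatment, which tests whether the sex difference was unlike in NT and LB, was -0.86 ± 0.63 for Shisa6 (adjusted p = 1.000). Shisa6 moved with the length trend over the 27 animals (Pearson's r = 0.826, Spearman's rho = 0.825, permutation p = 1e-05 for each, the smallest that the permutations can give). The r was 0.734 with group means subtracted and 0.784 without the 2 animals farthest from the median trend. A covariate for the length trend, which was added once the data had been seen, left a sex difference over all animals of -0.23 (adjusted p = 0.585). With the composition covariate, made from the cell markers, it was -1.54 and did not pass (adjusted p = 0.137).

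**Figure D3:**
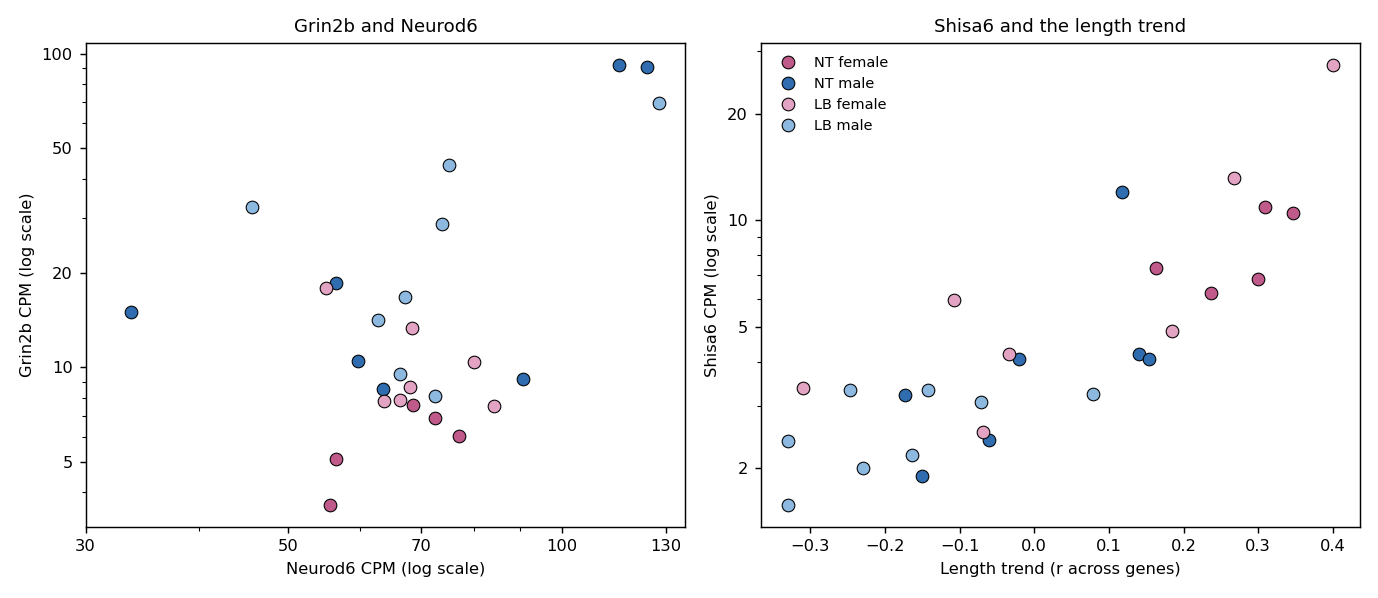
Left, Grin2b CPM against Neurod6 CPM, both on log axes. Right, Shisa6 CPM on a log axis against the length trend. Each point is 1 animal, coloured by group. On the left NT males 3113 and 6111 and LB male 122 lie apart at the upper right, with Neurod6 at 115.4 to 127.7 CPM, and on the right the highest Shisa6, 27.5 CPM, is LB female 8021.

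Among all genes tested, those whose log2 CPM followed Shisa6 most closely over the 27 animals were Mtmr9 (r = 0.942), Dnm3 (0.938), Hdlbp (0.933), Lgi2 (0.931) and Glg1 (0.927). All 5 had their highest group mean in NT females and their lowest in LB males. The same search for Grin2c gave Bmp1 (r = 0.972), Rnf112 (0.964), Pxn (0.958), Sbno2 (0.956) and Srrm3 (0.955). These values describe likeness over the same libraries and were not tested.

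Among the NMDA receptor genes, Grin1 varied least. In NT it stood at 571.5 ± 27.3 CPM (SD, n = 5) in females and 482.9 ± 132.1 (n = 7) in males. In LB it stood at 552.0 ± 58.2 (n = 7) in females and 501.2 ± 99.1 (n = 8) in males. Its log2 fold change between the sexes was -0.24 ± 0.16 in NT and -0.14 ± 0.14 in LB, neither past the threshold (adjusted p = 0.276 and 0.616). The lowest value, 322.6 CPM, was in NT male 6112. The log2 ratio of Grin1 to the summed GluN2 genes, per kb, was 0.42 ± 0.12 (SD, n = 5) in NT females and 0.59 ± 0.52 (n = 7) in NT males. It was 0.38 ± 0.30 (n = 7) in LB females and 0.37 ± 0.20 (n = 8) in LB males, and no comparison of it passed.

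Grin2c was by far the main GluN2 gene, at 88.8% ± 9.20 (SD, n = 27) of the summed level per kb. Grin2b made up 5.38% ± 7.16, Grin2a 3.36% ± 2.00 and Grin2d 2.46% ± 3.49. In NT females the Grin2c share was 92.8% ± 1.00 and in LB females it was 92.4% ± 2.03. It was 81.9% ± 14.6 in NT males and 89.2% ± 7.55 in LB males, where single animals fell to 62.9% and 72.8%. In CPM Grin2c ran from 358.1 to 490.2 in NT females, from 90.5 to 636.5 in NT males, from 302.1 to 577.2 in LB females and from 184.9 to 470.0 in LB males. Its log2 fold change between the sexes was -0.45 ± 0.29 in NT (adjusted p = 0.283) and -0.18 ± 0.26 in LB (adjusted p = 0.747).

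Grin2b was the only member to pass within NT. It was 3.65, 7.56, 6.06, 5.09 and 6.88 CPM in the 5 NT females. In the 7 NT males it was 18.6, 9.15, 92.3, 8.53, 10.5, 91.1 and 15.1 CPM, so that every NT male lay above every NT female. Such a split without overlap was seen in 7.24% of all genes tested. LB females ran from 7.55 over a median of 8.68 to 17.9 CPM and LB males from 8.13 over 22.7 to 69.5 CPM, and 4 of 8 LB males lay above every LB female. Grin2b was 6.00-fold higher in males than in females in NT, with a log2 fold change of 2.59 ± 0.63 (SE) and an adjusted p of 0.0132. In that comparison 15.2% of all genes tested passed, or 1840 genes. This background rested on single libraries: it was between 590 and 1128 genes when any 1 of the 5 NT females was left out, 1156 without NT male 3111 and 1141 without NT male 6112. It rose to 2735 without LB female 5022, 2622 without NT male 4111, 2253 without LB female 8021 and 2217 without NT male 3112. In LB the log2 fold change was 1.41 ± 0.52 (adjusted p = 0.170), and the interaction was -1.18 ± 0.77 (adjusted p = 1.000). Over all animals it was 2.00 ± 0.41, 3.99-fold higher in males (adjusted p = 0.00188). The NT difference passed in 9 of 13 other settings. It missed the threshold by limma-voom, both without a block (1.92, adjusted p = 0.0554) and with sets of animals of like title as a block (1.92, adjusted p = 0.148). It also missed it with the length trend covariate (2.19, adjusted p = 0.0582) and with the composition covariate (1.36, adjusted p = 0.640). The difference over all animals missed it with the block (1.51, adjusted p = 0.0559) and the composition covariate (1.10, adjusted p = 0.266). Leaving out any 1 animal kept the NT difference past the threshold, with log2 fold changes from 2.12 to 2.78.

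The animals with the most Grin2b, NT males 3113 and 6111 and LB male 122, had 92.3, 91.1 and 69.5 CPM of it. The same animals had the most Neurod6, at 115.4, 123.9 and 127.7 CPM, and the next highest Neurod6, 90.6 CPM in NT male 3112, stood beside 9.15 CPM of Grin2b. With Neurod6 as a covariate, which was chosen after seeing the data, the sex difference of Grin2b was 2.10 in NT (adjusted p = 0.0134), 1.21 in LB (adjusted p = 0.160) and 1.66 over all animals (adjusted p = 0.00225). No correlation is given, since these 3 animals lay apart from the others.

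Grin2a, another GluN2 gene, ran the opposite way to Grin2b. It was 23.9, 21.4, 23.8, 21.1 and 18.7 CPM in the 5 NT females, a narrow band. NT males ran from 6.61 over a median of 8.00 to 26.4 CPM, LB females from 4.23 over 13.3 to 38.5 CPM and LB males from 4.25 over 7.73 to 16.4 CPM. In NT, 6 of 7 males lay below every female, and the exception was animal 6111, without which the NT difference passed (-1.24, adjusted p = 0.0424). Over all animals Grin2a was 1.91-fold lower in males, with a log2 fold change of -0.93 ± 0.27 (adjusted p = 0.0141). The value was -0.90 ± 0.41 in NT (adjusted p = 0.124) and -0.97 ± 0.37 in LB (adjusted p = 0.182). With NT male 6112, LB females 8021 and 8023 and LB male 123 left out together, since single genes had stood apart in them, the difference over all animals was -0.63 and did not pass (adjusted p = 0.119). It also missed the threshold with the title block (-0.92, adjusted p = 0.0524) and the composition covariate (-0.82, adjusted p = 0.252). Grin2a followed the length trend more closely than any other member (r = 0.890, rho = 0.883, permutation p = 1e-05 for each; r = 0.839 with group means subtracted and 0.863 without the 2 farthest animals). With the length trend as a covariate its sex difference over all animals was 0.05 (adjusted p = 0.894).

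Grin2d was the least abundant GluN2 gene. It was 7.13, 7.50, 6.65, 5.19 and 7.76 CPM in the 5 NT females. NT males ran from 6.95 over a median of 8.32 to 32.8 CPM, LB females from 7.66 over 8.11 to 14.6 CPM and LB males from 5.79 over 8.39 to 12.1 CPM. The log2 fold change between the sexes was 0.84 ± 0.30 in NT (adjusted p = 0.0571) and -0.13 ± 0.26 in LB (adjusted p = 0.819). Its interaction of sex and treatment was -0.97 ± 0.40, the only one among the members with an unadjusted p under 0.05, and did not pass after adjustment (adjusted p = 1.000). NT male 6112, the animal with the highest deep nucleus and motor neuron markers, held the value of 32.8 CPM. Without it the NT sex difference was 0.36 (adjusted p = 0.206) and the interaction -0.49.

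**Figure D4:**
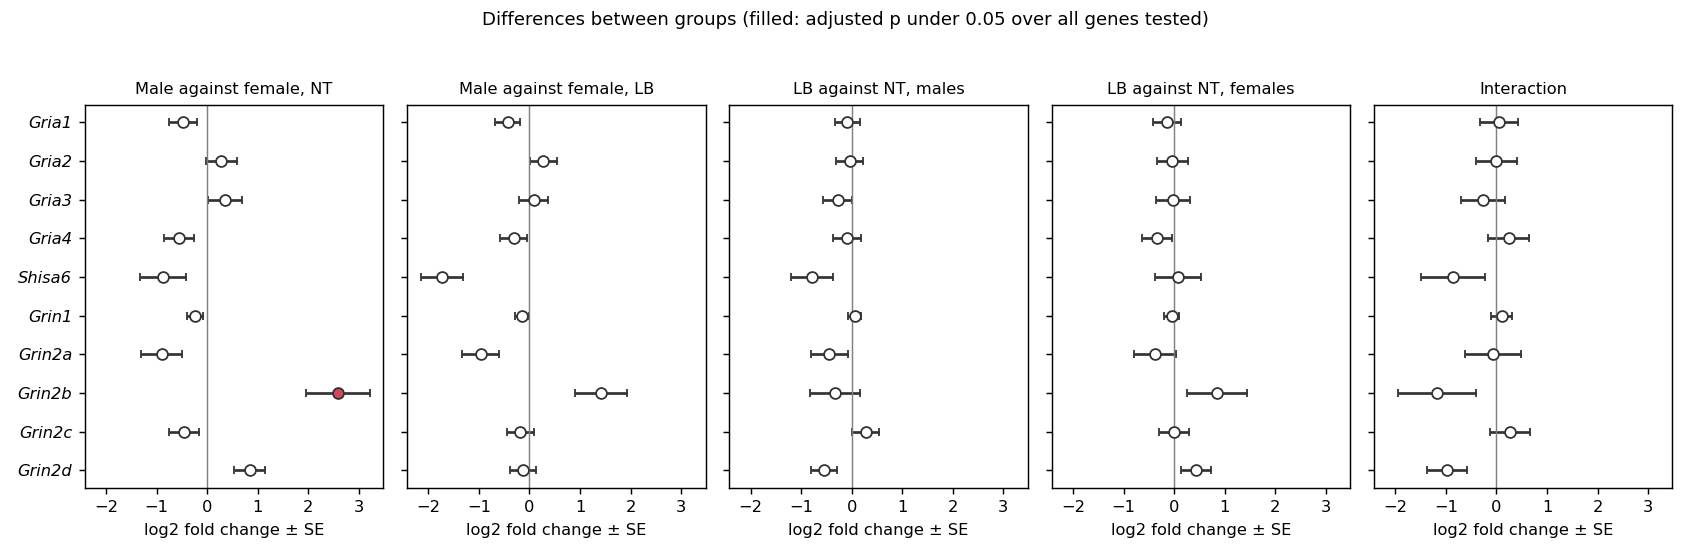
Log2 fold change (point) and standard error (bar) of each member in 5 comparisons, fitted by edgeR over all animals. Positive values are higher in males (left pair of panels) or in LB rats (middle pair), and the last panel is the sex difference in LB minus that in NT. The only filled point is Grin2b in NT, at 2.59.

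Taking the members as a set, 1 of 10 passed between the sexes in NT, 0 in LB and 3 over all animals (Grin2b higher, Shisa6 and Grin2a lower in males). The background was 15.2% in NT, 0.248% in LB and 29.3% over all animals, so the counts lie near the shares among all genes. At an unadjusted p under 0.05, 3 members stood in NT and 3 in LB, where 33.1% and 17% of all genes did. DESeq2 called 2 members in NT and 1 in LB. The share of all genes that DESeq2 called is not given here, so these counts cannot be set against a background. The median log2 fold change of the members was -0.35 in NT and -0.16 in LB, against 0.03 and 0.01 over all genes tested. These counts depended on single libraries. In NT, Grin2d also passed without NT male 3112, 4111 or 4113 or LB female 5022 or 8021, Grin2c also without NT male 4111, and Grin2a also without NT male 6111. The background moved as well, from 1840 genes to 2217 without animal 3112, 2622 without 4111, 2735 without 5022 and 2253 without 8021. It was 1510 without 4113 and 1508 without 6111. Without LB female 5022, 1059 genes in all and 2 members (Grin2a and Shisa6) passed in LB, in place of 30 and 0 (12 to 64 genes without any other single animal), and over all animals Gria1 and Gria4 also passed. Animals fall into sets by title, each set differing in the final digit alone and holding 1 sex and 1 treatment. The sets held 2 and 3 NT females, 3, 2 and 2 NT males, 3 and 4 LB females, and 3, 2 and 3 LB males. The permutation tests of shares, scores and relations do not allow for likeness within a set. With these sets as a block in limma-voom 0 members passed in NT, where 2 genes in all passed. Over all animals Shisa6 alone passed, and the share of all genes is not given for that fit.

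Limited bedding was not followed by a change of any member past the threshold. Over the 10 members the log2 fold changes between LB and NT lay between -0.78 and 0.27 in males, and those in females between -0.38 and 0.85. In males 0 members passed (0% of all genes tested), in females 0 (0.00826%) and over all animals 0 (0.00826%), by edgeR as by DESeq2 and limma-voom. The background of 1 gene in females and 1 over all animals became 7 and 330 genes without LB female 8021, and 2 and 3 without LB female 8023, with 0 members among them. At an unadjusted p under 0.05 there was 1 member in males and 0 in females, against 10% and 7.94% of all genes, so that the count in males is the background share. That member was Grin2d, with a log2 fold change between LB and NT of -0.54 ± 0.26 in males (adjusted p = 0.492) and of 0.43 ± 0.30 in females (adjusted p = 0.735). Without NT male 6112 the Grin2d value in males was closer to 0, at -0.06. Shisa6 had -0.78 ± 0.42 between LB and NT males (adjusted p = 0.503), and Grin2a had -0.45 ± 0.37 (adjusted p = 0.636). In females the largest size was that of Grin2b, 0.85 ± 0.59 (adjusted p = 0.735), followed by Grin2d, while Gria4 had -0.34 ± 0.30 (adjusted p = 0.777) and Shisa6 0.07 ± 0.46 (adjusted p = 0.968). The median standard error of the members was 0.27 in males and 0.30 in females, and none of the differences passed, up to a size of 0.78 in males and 0.85 in females. For the interaction of sex and treatment the members ran from -1.18 to 0.27, and 0 of 10 members and 0% of all genes tested passed by edgeR. By DESeq2 and limma-voom 0 members passed, and by edgeR 1 member had an unadjusted p under 0.05, against 4.71% of all genes.

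Relations of the members to tissue composition were examined over the 27 animals with the granule cell score and the deep nucleus score, each the mean of centred log2 CPM over the markers, and with the length trend. Of the 30 relations, 15 passed after adjustment by Pearson's r and 11 by both r and rho. Gria4 rose with the granule cell score (r = 0.724, rho = 0.844, adjusted permutation p = 0.000540 and 7.50e-05) and Grin2b fell with it (r = -0.735, rho = -0.830, adjusted permutation p = 0.000540 and 7.50e-05). With group means subtracted these were 0.726 and -0.628, and without the 2 farthest animals 0.749 and -0.796. Both genes also moved with the length trend. There Gria4 had r = 0.685 and rho = 0.751 (adjusted permutation p = 0.000500 and 0.000120), and Grin2b had r = -0.541 and rho = -0.738 (adjusted permutation p = 0.0107 and 0.000200). With group means subtracted these r were 0.656 and -0.265. Gria1 (r = 0.631, rho = 0.659) and Gria3 (r = 0.483, rho = 0.571) passed with the length trend as well. Grin2b rose with the deep nucleus score (r = 0.461, rho = 0.708, adjusted permutation p = 0.0337 and 0.000214). That r was 0.236 with group means subtracted and 0.594 without the 2 farthest animals. Grin2c had r = 0.604 with the granule cell score but rho = 0.348 (adjusted permutation p = 0.00480 and 0.134), and r was 0.342 without NT males 3113 and 6112. Within groups this r was 0.623 in NT males and 0.731 in LB males but -0.394 in LB females. Grin2d had r = 0.619 and rho = 0.0897 with the deep nucleus score (adjusted permutation p = 0.0139 and 0.726), and r was 0.0377 without NT male 6112 and LB male 7122. The granule cell score was 0.47 ± 0.0914 (SD, n = 5) in NT females and -0.42 ± 0.590 (n = 7) in NT males (exact permutation p = 0.00505, adjusted p = 0.0525). The Purkinje cell score was also lower in NT males, at -0.33 against 0.25 (exact permutation p = 0.0101, adjusted p = 0.0657). In LB the meninges score was higher in males and passed, at 0.22 against -0.41 (exact permutation p = 0.000311, adjusted p = 0.0162 over 52 score comparisons). The oligodendrocyte score was -0.11 in LB and -0.77 in NT females (exact permutation p = 0.00505, adjusted p = 0.0525). The granule cell score was 0.16 in LB and 0.47 in NT females (exact permutation p = 0.0202, adjusted p = 0.0955). In NT males, where 10.1% of all genes were called higher and 5.08% lower, all 5 oligodendrocyte markers, 4 of the 6 deep nucleus markers and 2 of the 5 microglia markers were called higher. Of the 6 Purkinje cell markers 3 were called lower, as were 2 of the 6 granule cell markers. Of the 6 markers of astrocytes and Bergmann glia 2 were called higher and 1 lower. With composition as a covariate 0 members passed between the sexes in NT, in LB or over all animals, and 3, 15 and 6 genes of the whole table passed.

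Around the receptors, a list of 66 related genes (auxiliary proteins, kainate and metabotropic receptors, scaffolds, pentraxins and RNA editing enzymes) had 62 members tested. Between the sexes in NT, 6 of the 62 were higher and 7 lower in males, and in LB 0 passed, with 17 at an unadjusted p under 0.05. The shares of all genes were 10.1% higher and 5.08% lower in NT, and 17% at an unadjusted p under 0.05 in LB. The median log2 fold change of the list was -0.04 in NT and -0.07 in LB, against 0.03 and 0.01 over all genes. Between LB and NT 0 of the 62 passed in either sex by edgeR, and 4 in males and 1 in females had an unadjusted p under 0.05, against 10% and 7.94% of all genes.

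Among the auxiliary proteins of AMPA receptors, 4 of 19 were higher and 2 lower in NT males, where the 15.2% of all genes that passed were 10.1% higher and 5.08% lower. Cnih3, a cornichon that slows receptor deactivation, had 0.429 ± 0.173 CPM (SD) in the 5 NT females and 3.02 ± 3.76 in the 7 NT males, a log2 fold change of 2.80 ± 0.77 (SE, adjusted p = 0.0204). Olfm2 rose by 2.45 ± 0.62 (adjusted p = 0.0153) and Cacng3, a transmembrane regulator of AMPA receptors known from forebrain, by 2.34 ± 0.77 (adjusted p = 0.0406). Shisa7, a relative of Shisa6, was 1.62 ± 0.52 higher in NT males (adjusted p = 0.0383), where Shisa6 had -0.87. Neto1, an auxiliary protein of kainate receptors, rose by 2.39 ± 0.75 (adjusted p = 0.0356). Homer3, a scaffold that links metabotropic receptors to calcium stores, was 1.78-fold lower in NT males (log2 fold change -0.83 ± 0.20, adjusted p = 0.0132). The spread of the higher genes was wide: the SD of Olfm2, 52.4 CPM in NT males, was as large as its mean of 52.6 CPM.

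**Figure D5:**
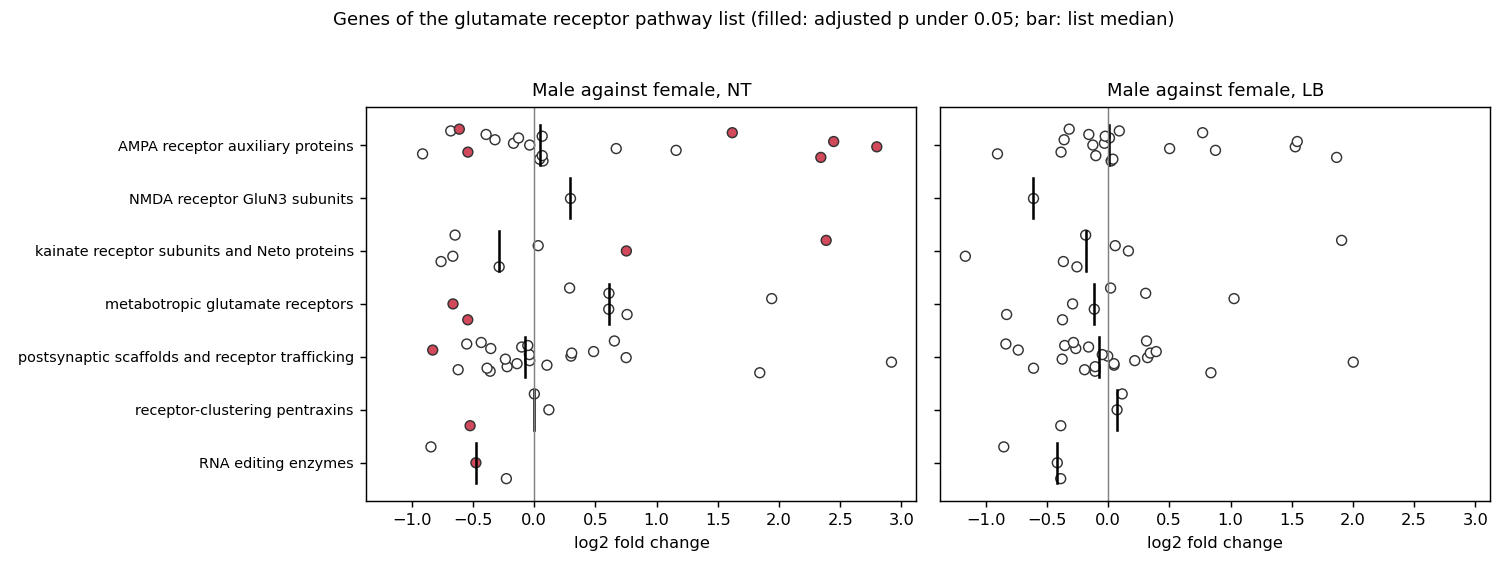
Each point is a gene of the receptor-related list, with its log2 fold change between males and females in NT (left) and LB (right), set out by kind of protein. Bars are the medians of each list, and filled points passed the threshold (13 in NT and 0 in LB).

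Over all animals 11 genes of the list were higher and 15 lower in males, against 16.9% of all genes higher and 12.4% lower. The largest changes were in Dlgap2, a scaffold of the postsynaptic density, by 2.46 ± 0.69 (adjusted p = 0.0113), Cnih3 by 2.16 ± 0.49 (adjusted p = 0.00340) and Neto1 by 2.15 ± 0.50 (adjusted p = 0.00364). Cacng3 followed at 2.10 ± 0.51 (adjusted p = 0.00449), Olfm2 at 2.00 ± 0.40 (adjusted p = 0.00179) and the metabotropic receptor gene Grm5 at 1.48 ± 0.53 (adjusted p = 0.0382). All 6 of these were higher in males.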

How the data were processed

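IP punches of 27 rats were sequenced as messenger RNA, each animal in 1 library. Per the submitters' processing notes, the authors used STAR 2.5.2b, featureCounts (Subread 1.5.1) and rn6, and they deposited raw counts per gene without normalization. Strand handling is not given in the sources used here. Groups came from the labels.

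Genes with too few counts were dropped with the filterByExpr function (count of 10 or more, total of 15 or more), libraries were scaled by the TMM method, and counts were fitted in 1 robust quasi-likelihood model of the 4 groups (edgeR 4.0.16, R 4.3.3), which had been tested on simulated counts. Scores and likeness used log2(CPM + 0.5), and relations used 100000 permutations. Alternatives were DESeq2 1.42.0, limma-voom (limma 3.58.1), and limma-voom with a block for sets of titles. Further ones, by edgeR, were other scalings and filters, the compared groups alone, a composition covariate and leaving out animals. The Neurod6 and length trend covariates, and leaving out animals 3113 and 5022, were chosen after seeing the data.

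The members and gene lists were chosen with earlier results of these data known. Of the related genes, the 6 with the largest changes past the threshold are named in each comparison, and for Shisa6 and Grin2c the 5 genes with the highest Pearson's r. Of 80 pairs of animals within groups, 0 had identical counts.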

Additional observations from a re-analysis of the deposited data

Results flagged for a closer look

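In all, 76 sets of values were examined: the CPM of each member, the 8 subunit shares and the ratio of Grin1 to the summed GluN2 genes, in each group. Of these, 12 held 1 animal far from the others by Dixon's criterion, 9 in CPM and 3 in shares. Chance gives about 1 such set in 20 for independent sets of normal values, whereas these sets share libraries.

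Gria3 had such an animal in every group. NT female 2012 had 61.8 CPM, below the next value of 90.4, and LB female 5022 had 26.7 CPM, below the next of 77.8. NT male 6111 had 252.8 CPM, above the next of 114.9, and LB male 122 had 174.1 CPM, above the next of 94.8. NT female 2012 was also low in Gria4, at 532.3 CPM against 706.1 for the next.

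NT male 6112, the animal with the highest deep nucleus and motor neuron markers, had 32.8 CPM of Grin2d against 11.4 for the next NT male. In the same animal Shisa6 was 11.99 CPM against 4.20, and Grin2d made up 19.7% of the GluN2 genes against 3.20%. LB female 5022 had 14.6 CPM of Grin2d against 9.49 for the next, and its Gria4 share of 30.5% lay below the next of 41.3%. LB female 8021 had 27.5 CPM of Shisa6 against 13.1. LB male 122 had a Grin2b share of 22.8% against 11.4%. The causes of these values were not tested.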

How the results depend on the processing

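Counts of members that passed moved with the processing, and the cause was not tested. Between the sexes in NT, 1 member passed, and this became 2 with DESeq2, upper-quartile scaling, a filter of 10 counts in every animal, the Neurod6 covariate, or without animals 6112, 8021, 8023 and 123 together or animals 3113 and 5022. It became 0 with limma-voom, the title block, and the composition or length trend covariate. In LB the count of 0 became 1 with DESeq2 and 4 without animals 3113 and 5022. Over all animals the count of 3 became 1 with the title block, 0 with the composition covariate and 5 without animals 3113 and 5022. It was 4 with DESeq2 or scaling by library size alone, where Gria1 joined, and 2 without the 4 animals together, where Grin2a was lost, or with the length trend covariate, where Gria3 passed and Shisa6 and Grin2a did not. Leaving out 1 animal gave 1 to 3 in NT, 0 to 2 in LB and 3 to 5 over all animals. All genes that passed then ran from 590 to 2735 in NT, 12 to 1059 in LB and 2805 to 5125 over all animals. The main fit had 1840, 30 and 3546, and each range peaked without LB female 5022. Among the other settings, the number of all genes that passed is given only for the composition covariate and, in NT, the title block. The other counts of members between the sexes thus have no background beside them. Of the subunit shares 2 passed without scaling for exon length, in place of 0. The 0 members for limited bedding stayed 0 under every setting run. No paired analysis was possible because each sample number names 1 animal of 1 group. The title block was fitted by limma-voom and left 2 genes called in NT, against 1840 by edgeR without it. Method and block thus changed together, and the count by limma-voom without the block is not given.

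Log2 differences between the sexes turned sign as follows. With the length trend covariate they were 0.0057 for Gria4, 0.00078 for Grin2a and 0.062 for Shisa6 in NT, 0.084 for Gria1, 0.24 for Gria4 and 0.10 for Grin2a in LB, and 0.035 for Gria1, 0.12 for Gria4 and 0.050 for Grin2a over all animals. With the composition covariate they were -0.023 for Grin2d in NT, 0.031 for Grin2c in LB, and 0.013 for Grin2c and -0.20 for Grin2d over all animals. Without animals 3113 and 5022, Gria3 was -0.074 and Grin2d 0.014 in LB. Leaving out 1 animal gave -0.019 to 0.46 for Gria3 in NT, -0.13 to 0.18 for Gria3 in LB and -0.23 to 0.014 for Grin2d in LB.

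Between LB and NT, the length trend covariate gave 0.33 for Grin2a in males and 0.053 for Gria4 in females. Shisa6 in females was -0.35 by limma-voom, -0.39 with the title block, -0.52 without animals 6112, 8021, 8023 and 123, and -0.55 to 0.23 leaving out 1 animal. Its interaction was 0.21 without the same 4 animals. Of the 527 differences of single members and of their shares under other settings, 478 kept their direction and side of the threshold, as did 1325 of 1350 when 1 animal was left out. Many omissions removed an animal outside the groups compared, which hardly moved the estimate. Grin2a in NT, for one, was -0.8976 with all animals and -0.8975 without LB male 121. Most of these differences had also not passed at first, so the totals do not measure stability. Counts of 22 for Shisa6 and 62 for Grin2a in the lowest animal limit the precision of these genes.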
